A study of Homo sapiens with 17 samples.

Results

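The genes described here are 10 that write, remove or read ubiquitin chains at receptors of the TNF family: TNFAIP3, TNIP1, TNIP2, CYLD, OTULIN, RNF31, RBCK1, SHARPIN, TAX1BP1 and ITCH. They were selected by symbol from a table of 58870 gene entries, and the list was drawn up with earlier results of these data known. All 10 were found once each, and all 10 passed the filter on low counts that left 15365 genes for testing. RNA was measured in the established human line MDA-MB-231, which derives from a triple-negative breast tumour and is labelled mesenchymal basal B. The cells received TRAIL, a death ligand of the TNF family, at 45 nM, a dose the submitters call suboptimal, and RNA was taken after 0, 1, 3, 6, 12 and 24 h. The design asks how the transcriptome of living cells responds to TRAIL over time. Each time had 3 libraries, apart from 1 h with 2. Every library carries the same treatment label, those at 0 h included, and the labels give 0 untreated samples at later times, so time with TRAIL and time in culture cannot be told apart. All libraries come from 1 cell line, and the labels do not say whether replicates were separate cultures, so p-values measure the spread between these libraries.

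Ubiquitin chains assembled at a TNF-family receptor complex act as a scaffold that recruits the kinases which activate NF-κB. LUBAC, the linear ubiquitin chain assembly complex of RNF31 (also called HOIP, the catalytic subunit), RBCK1 (HOIL-1) and SHARPIN, writes linear chains. CYLD and OTULIN are deubiquitinases that take chains apart, OTULIN being specific for linear ones. A20, the product of TNFAIP3, edits chains and works with ubiquitin-binding or ligase partners, among them TNIP1, TNIP2, TAX1BP1 and ITCH. TNFAIP3 is a textbook NF-κB target gene and a brake on the same pathway.

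Promoter sequence was read for the members because NF-κB acts through a known DNA motif, the 10-base κB consensus. RefSeq promoter windows (GRCh38.p14) run from 250 bases before to 50 bases after an annotated gene start. They cover 9 of the 10 genes in 14 windows. The κB consensus, searched on both strands, occurred in windows of 3 of these 9 genes, TNFAIP3, TNIP1 and CYLD. Of all 35116 windows in the table, 11.3% held at least 1 match and 2.04% at least 2, and 13.3% of the 27305 genes had a match in any window. The 200 bases before the start are shown for the windows of these 3 genes in which the match lies before the start, 5′ to 3′ along the gene's own strand, with the matched bases in capitals.
TNFAIP3 (chr6:137867059-137867258, plus strand): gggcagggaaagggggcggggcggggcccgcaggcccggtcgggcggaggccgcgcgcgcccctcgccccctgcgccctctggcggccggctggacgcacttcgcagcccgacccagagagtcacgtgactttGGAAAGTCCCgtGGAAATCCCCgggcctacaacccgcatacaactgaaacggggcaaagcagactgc
TNIP1 (chr5:151081035-151081234, minus strand): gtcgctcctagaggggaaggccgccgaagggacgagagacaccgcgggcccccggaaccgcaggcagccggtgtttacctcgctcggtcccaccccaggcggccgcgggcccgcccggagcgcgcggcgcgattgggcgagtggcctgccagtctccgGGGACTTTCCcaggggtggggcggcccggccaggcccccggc
CYLD (chr16:50741886-50742085, plus strand): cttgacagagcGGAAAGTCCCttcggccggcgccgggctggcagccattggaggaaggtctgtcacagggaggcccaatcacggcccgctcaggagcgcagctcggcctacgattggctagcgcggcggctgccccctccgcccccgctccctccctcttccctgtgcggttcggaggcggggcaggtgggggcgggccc

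TNFAIP3 had 2 matches, which began 67 and 55 bases before the RefSeq start, at chr6:137867192 and 137867204. In GENCODE 29 the gene starts at 137867188, so both lie inside its span there. The match of TNIP1 began 42 bases before the RefSeq start and also lies inside the gene's GENCODE 29 span. That of CYLD began 189 bases before the RefSeq start. A further CYLD window (chr16:50742165-50742464) had a match, GGGGCTTCCC, that began at the start itself. The windows of TNIP2, OTULIN, RNF31, RBCK1, TAX1BP1 and ITCH held 0 matches. A match describes the letters of the window and is not a measured binding site.

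Total counts ran from 13731520 to 19234924 per library. Of the mesenchymal markers, VIM (at least 2495 CPM), CD44 (at least 1219 CPM), FN1 (at least 631 CPM) and ZEB1 (at least 31.9 CPM) were present in every library. Of the epithelial ones, KRT18 (522 to 931 CPM) and EPCAM (13.1 to 19.3 CPM) were present too, CDH1 reached 1.01 CPM and KRT5 had at most 1 count. ESR1 and PGR had at most 2 counts in any library, while ERBB2 had 56.4 to 70.9 CPM. Among leukocyte and endothelial markers, CD3E was at 0 in all 17 libraries, PTPRC and VWF had at most 5 counts, and CD14 and PECAM1 reached 32 and 68. Levels are given in CPM, that is, counts scaled to the library total after TMM normalization. A gene is called higher or lower where the edgeR quasi-likelihood test gave an adjusted p below 0.05 over all genes tested. Transcript length weighed on the counts differently from library to library. Relative to the mean of all libraries, log2 CPM changed per doubling of length by -0.05 ± 0.028 in the 0 h libraries (SD, n = 3) and by -0.10 ± 0.044 in those of 3 h (n = 3). The 6 h libraries gave 0.08 ± 0.057 and the 24 h libraries 0.10 ± 0.078 (n = 3 each), so longer transcripts gained relative to shorter ones at 6 and 24 h. Mitochondrial genes took 6.75 ± 1.46% of the counts at 0 h and 3.90 ± 0.240% at 24 h. For the members, values with the length and GC trends of each library removed are given beside the results whose call they change against 0 h. Values of single genes outside the members are given as counted only.

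Most of these genes moved upward after TRAIL, at different times. TNFAIP3 rose first and most, 2.97-fold at 3 h. TNIP1, CYLD, OTULIN and ITCH stood 1.30- to 1.61-fold above 0 h at 6 h and 1.37- to 1.62-fold above at 24 h. None of the 3 LUBAC genes was called higher against 0 h as counted. RBCK1 was lower at 24 h and SHARPIN at 12 and 24 h, and RNF31 was called at 0 of the 5 times. With the length and GC trends removed, SHARPIN was not called at either time (-0.11, adjusted p = 0.133, and -0.02, 0.769, edgeR), RBCK1 was also higher at 3 h (0.18, 0.0109), and RNF31 was higher at 3 h (0.19, 0.0299) and 24 h (0.21, 0.0112). In bulk RNA, a change in the number of cells that express a gene and a change in its RNA per cell cannot be told apart. The 5 comparisons with 0 h share the same 3 libraries at 0 h.

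At 1 h, 1 of the 10 genes was higher (0.26% of all genes tested were called higher) and 0 were lower (0.0521% of all). At 3 h, 3 were higher (9.04% of all) and 0 lower (8.71%). At 6 h, 5 were higher (16.9%) and 0 lower (13.2%). At 12 h, 6 were higher (5.96%) and 1 lower (6.48%). At 24 h, 6 were higher (18% of all) and 2 lower (17.1%). The share of members called higher lay above the share of all genes at each of these times. This is a description only, because the members were chosen with earlier results of these data known. In either direction, 1, 7, 7, 7 and 8 members had an unadjusted p below 0.05 at the 5 times (edgeR). The 12 h count of higher members rested on 1 library, being 2 without the 12 h replicate 2, and the 1 h count was 0 without the 0 h replicates 2 or 3 or either 1 h library. The 10 genes' median log2 fold changes at 1, 3, 6, 12 and 24 h were -0.0013, 0.19, 0.26, 0.26 and 0.34, beside -0.0041, -0.0041, -0.02, -0.0032 and -0.0017 over all genes tested. Over all times together, 9 of the 10 changed (64.2% of all genes did), TNIP2 being the exception.

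**Figure D1:**
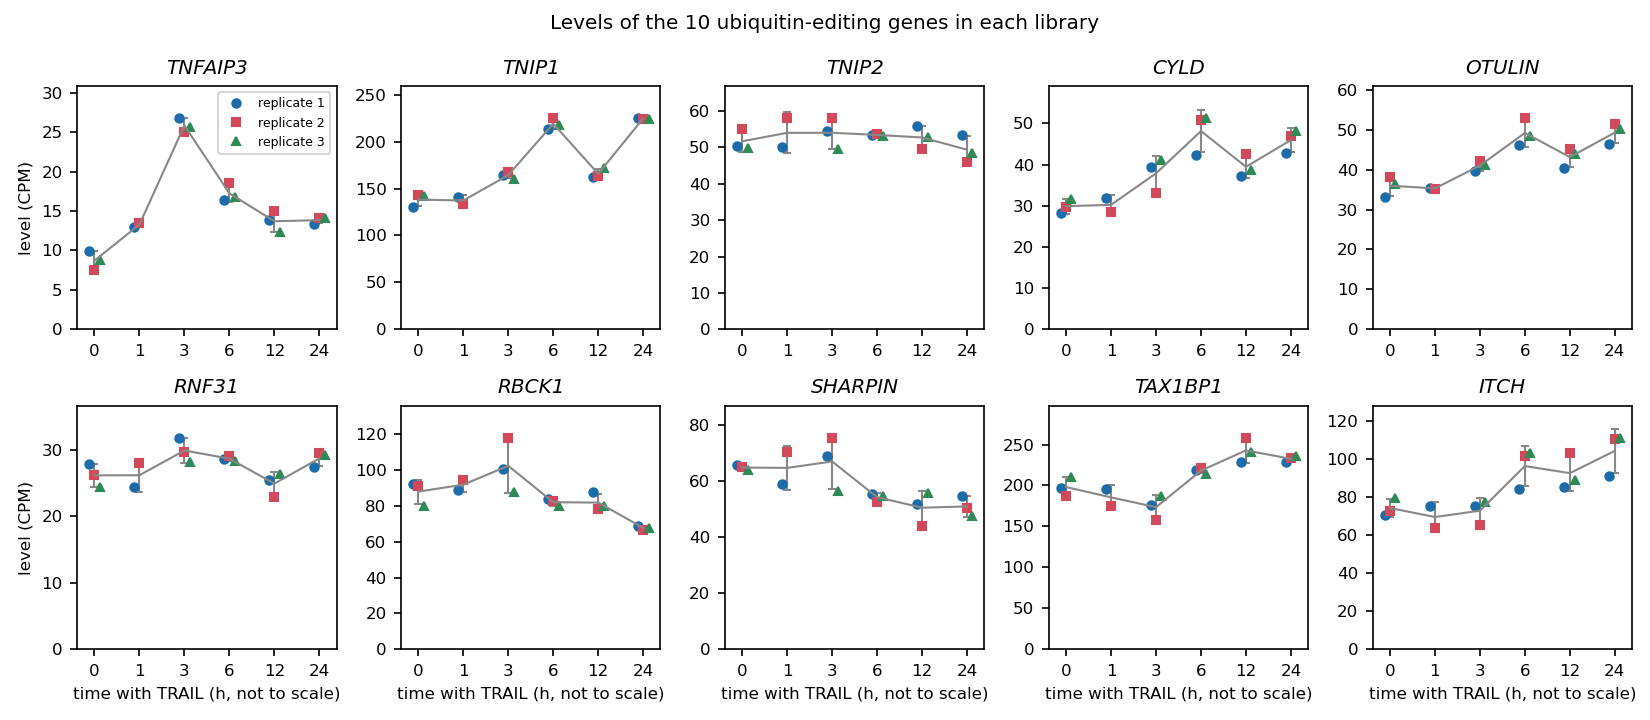
Levels of the 10 genes (CPM on TMM-scaled totals) in each of the 17 libraries by time with TRAIL, with the mean and SD of each time as a line with bars and the replicate as colour and shape. TNFAIP3 peaks at 3 h, TNIP1 has separate highs at 6 and 24 h, and TNIP2 stays between 46.1 and 58.2 CPM.

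TNFAIP3 (ENSG00000118503, chr6:137867188-137883312 in GENCODE 29 on GRCh38, plus strand) encodes A20, which joins a deubiquitinase and a ubiquitin-binding activity in 1 protein. At 0 h its level was 9.89, 7.48 and 8.78 CPM. It was 13.0 and 13.5 CPM at 1 h, and 26.9, 25.1 and 25.7 CPM at 3 h. The libraries at 1 h and at 3 h all lay above every library at 0 h, and those at 3 h above every other library of the series. At 6 h the values were 16.4, 18.5 and 16.8 CPM. At 12 h they were 13.9, 15.0 and 12.3 CPM, and at 24 h 13.4, 14.1 and 14.1 CPM. Each of these later groups also lay above 0 h without overlap, and those at 12 and 24 h overlapped each other and the range at 1 h.

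The log2 fold change of TNFAIP3 against 0 h was 1.57 ± 0.098 at 3 h (SE, adjusted p = 1.48e-09, edgeR). It was 0.98 ± 0.10 at 6 h (adjusted p = 1.32e-06), 0.65 ± 0.10 at 12 h (0.000376) and 0.67 ± 0.10 at 24 h (0.000108), so the gene remained called at every time after its peak. These 4 calls were made under all 30 alternative settings. Between 3 and 6 h TNFAIP3 fell by 0.59 on the log2 scale (adjusted p = 9.94e-05, edgeR) and between 6 and 12 h by 0.33 (0.0177). The second fall lost its call when the 6 h replicate 2 (-0.28, adjusted p = 0.0904, edgeR) or the 12 h replicate 3 (-0.26, 0.0933) was left out, and under upper-quartile scaling (-0.26, 0.0590). The rise at 1 h was 0.61 ± 0.11 (adjusted p = 0.0159, edgeR). That call depended on single libraries. Leaving out replicate 2 of 0 h gave 0.51 (adjusted p = 0.137, edgeR) and leaving out replicate 3 of 0 h gave 0.61 (0.0565). Leaving out replicate 1 of 1 h gave 0.64 (0.117), and replicate 2 of 1 h 0.57 (0.25). When the fit held 0 and 1 h alone, the value was 0.61 (0.127). With 120 to 362 counts per library, TNFAIP3 had the fewest counts of the 10 genes.

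TNIP1 (ENSG00000145901, chr5:151029945-151093577, minus strand) encodes ABIN-1, a ubiquitin-binding partner that brings A20 to its substrates. Its levels were 130.5, 142.9 and 141.6 CPM at 0 h, and 141 and 134 CPM at 1 h. They were 165, 167 and 161 CPM at 3 h, and 214, 225 and 218 CPM at 6 h. The groups at 0 and 1 h overlapped, and those at 3 and 6 h lay apart from them and from each other. At 12 h the levels were 163, 163 and 171 CPM, and at 24 h 226, 224 and 225 CPM. The 12 h libraries thus overlapped those of 3 h, and the 24 h libraries those of 6 h.

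The log2 fold change of TNIP1 against 0 h was 0.25 ± 0.051 at 3 h (SE, adjusted p = 0.00258, edgeR) and 0.66 ± 0.051 at 6 h (3.35e-08). It was 0.26 ± 0.051 at 12 h (0.00261) and 0.70 ± 0.051 at 24 h (1.41e-08). All 4 were called under each of the 30 alternatives. The steps between neighbouring times were called too: TNIP1 rose by 0.42 from 3 to 6 h, fell by 0.40 from 6 to 12 h and rose by 0.44 from 12 to 24 h (adjusted p = 1.37e-05, 1.96e-05 and 5.04e-05, edgeR). With the length and GC trends removed, TNIP1 was higher by 0.73 at 6 h and 0.80 at 24 h.

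TNIP2 (ENSG00000168884, chr4:2741648-2756376, minus strand), which encodes ABIN-2, another ubiquitin-binding A20 partner, held between 46.1 and 58.2 CPM in all 17 libraries. Its means ran from 49.4 ± 3.71 CPM at 24 h to 54.0 ± 4.36 CPM at 3 h (SD, n = 3), and every later group overlapped 0 h. It was not called at any time as counted, and its adjusted p over all times together was 0.614 (edgeR). With the length and GC trends removed, TNIP2 was called higher at 6 h (0.22, adjusted p = 0.00304, edgeR), 12 h (0.19, 0.0149) and 24 h (0.15, 0.0290). Its longest transcript has 2006 bases and 61.8% GC, against medians of 3333 bases and 48.4% over the genes tested.

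TAX1BP1 (ENSG00000106052, chr7:27739331-27844564, plus strand) encodes a ubiquitin-binding adaptor of A20 that also serves as an autophagy receptor. Its level was 197, 187 and 210 CPM at 0 h and 176, 157 and 188 CPM at 3 h. It was 219, 221 and 215 CPM at 6 h, 229, 259 and 242 CPM at 12 h, and 229, 233 and 236 CPM at 24 h. The 3 h values reached down below all those at 0 h with the highest of them inside the 0 h range, and each library from 6 h on lay above all of 0 h. TAX1BP1 was higher at 12 h by 0.30 ± 0.066 on the log2 scale (adjusted p = 0.00683, edgeR) and at 24 h by 0.23 ± 0.066 (0.0109). The value at 3 h was -0.19 ± 0.067 (adjusted p = 0.0539, edgeR), and the step from 3 to 6 h, 0.33 ± 0.067, was called (0.000664) under all 30 alternatives. Leaving out replicate 2 of 12 h ended the 12 h call (0.25, adjusted p = 0.0533, edgeR), and leaving out replicate 2 of 0 h the 24 h call (0.19, 0.0559). The 3 h value, in turn, was called lower under 10 of the alternatives, among them the removal of length and GC trends (-0.19, adjusted p = 0.00905, edgeR). Expected counts of TAX1BP1 were not whole in 15 of 17 libraries, so fragments were divided between it and other genes there.

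ITCH (ENSG00000078747, chr20:34363235-34511393, plus strand) encodes a HECT-type ubiquitin ligase that acts with A20 and TAX1BP1. Its level was 70.9, 72.6 and 79.4 CPM at 0 h and 65.3 to 77.7 CPM at 3 h. It was 84.2, 102 and 103 CPM at 6 h, 85.6, 103 and 88.8 CPM at 12 h, and 91.1, 110.6 and 111 CPM at 24 h. The groups at 0 and 3 h overlapped, and all 9 later libraries were above both. ITCH was higher than at 0 h by 0.38 ± 0.10 at 6 h (SE, adjusted p = 0.00986, edgeR), 0.32 ± 0.10 at 12 h (0.0446) and 0.49 ± 0.10 at 24 h (0.00141). The 24 h call was made under all 30 alternatives. Leaving out replicate 3 of 6 h ended the 6 h call (0.32, adjusted p = 0.0562, edgeR). The 12 h call was lost when any 1 of 9 libraries was left out, the lowest value being 0.23 with replicate 2 of 12 h omitted (0.226). Those 9 were all of 0 h, replicate 1 of 3 h, replicate 2 of 6 h and replicates 2 and 3 of 12 and 24 h. With length and GC trends removed the rises of ITCH at 6, 12 and 24 h were smaller, 0.19, 0.22 and 0.29, and still called (adjusted p = 0.00703, 0.00554 and 0.000190, edgeR).

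CYLD (ENSG00000083799, chr16:50742050-50801935, plus strand) encodes a deubiquitinase and tumour suppressor that removes linear and lysine-linked chains. Its level was 28.1, 29.8 and 31.7 CPM at 0 h and 39.4, 33.1 and 41.2 CPM at 3 h. It was 42.2, 50.8 and 51.4 CPM at 6 h, 37.2, 42.5 and 38.6 CPM at 12 h, and 42.7, 46.8 and 48.2 CPM at 24 h. Every library from 3 h on lay above all of 0 h, with the highest at 6 h. CYLD was higher by 0.34 ± 0.096 at 3 h (SE, adjusted p = 0.0181, edgeR) and by 0.69 ± 0.093 at 6 h (3.52e-05). The later differences were 0.40 ± 0.094 at 12 h (0.00879) and 0.62 ± 0.093 at 24 h (8.73e-05). The calls at 6 and 24 h were made under all 30 alternatives. Omitting replicates 1 or 2 of 0 h or replicates 1 or 3 of 3 h ended the 3 h call (0.28 to 0.34, adjusted p of 0.0544 to 0.0690, edgeR), as did scaling by library size alone (0.27, 0.0708). Omitting replicate 2 of 12 h ended the 12 h call (0.34, 0.0600).

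The size of the change in CYLD moved when the length and GC trends were removed. Its longest transcript has 8503 bases and 39.7% GC. With these trends removed, CYLD was higher by 0.42, 0.48, 0.29 and 0.39 at 3, 6, 12 and 24 h, all called (edgeR). The step from 3 to 6 h was 0.35 ± 0.093 as counted (adjusted p = 0.00534, edgeR) and 0.06 with the trends removed (0.393). The high of CYLD at 6 h over 3 h was therefore seen as counted and not in the adjusted values. CYLD fell by 0.29 from 6 to 12 h (adjusted p = 0.0314, edgeR), a call lost on omitting replicates 2 or 3 of 6 h or replicates 1 or 3 of 12 h (0.0930 to 0.148) and under upper-quartile or library-size scaling (0.0823 and 0.0818).

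OTULIN (ENSG00000154124, chr5:14664664-14699711, plus strand), the deubiquitinase dedicated to linear chains, had 33.2, 38.2 and 36.5 CPM at 0 h and 39.6, 42.2 and 41.2 CPM at 3 h. It had 46.3, 53.0 and 48.3 CPM at 6 h, 40.5, 45.0 and 43.9 CPM at 12 h, and 46.4, 51.4 and 50.1 CPM at 24 h. Every library from 3 h on was above all of 0 h, and the ranges at 6 and 24 h overlapped. OTULIN was higher by 0.45 ± 0.072 at 6 h (SE, adjusted p = 0.000182, edgeR), 0.26 ± 0.072 at 12 h (0.0213) and 0.45 ± 0.072 at 24 h (0.000147), and 0.19 ± 0.074 at 3 h was not called (0.0816). The calls at 6 and 24 h were made under all 30 alternatives. Omitting replicate 1 of 0 h or replicates 2 or 3 of 12 h ended the 12 h call (adjusted p = 0.127, 0.107 and 0.0613, edgeR).

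The longest transcript of OTULIN has 7800 bases and 43.4% GC. With the trends removed, its rise was 0.24 at 3 h (adjusted p = 0.00814, edgeR), 0.27 at 6 h (0.00252), 0.16 at 12 h (0.0903) and 0.24 at 24 h (0.00474). The 6 and 24 h values of OTULIN thus fell from 0.45 to near the 3 h value. The step from 3 to 6 h, 0.26 as counted (0.00652), was 0.03 in the adjusted values (0.775).

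**Figure D2:**
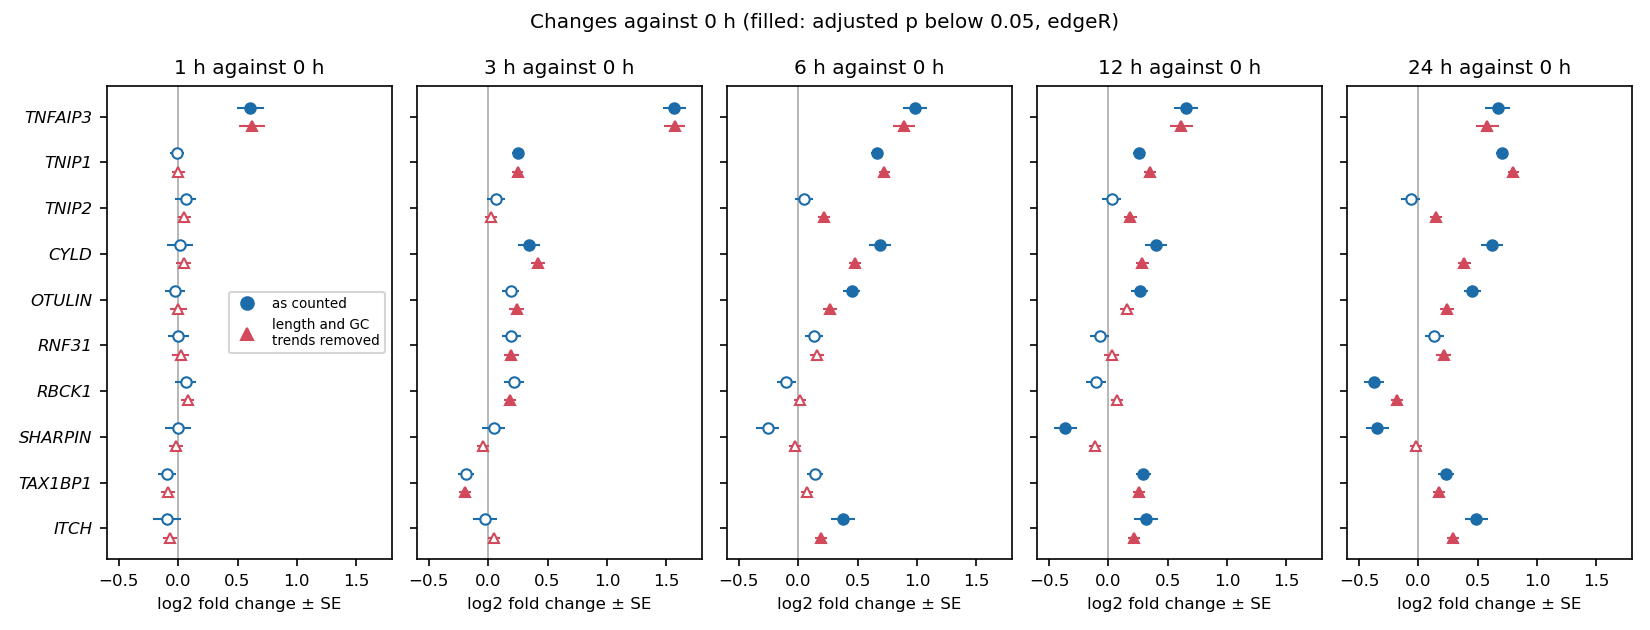
Log2 fold change of each gene against 0 h with its SE, as counted (circles) and with the length and GC trends of each library removed (triangles), filled where the adjusted p was below 0.05 (edgeR). TNFAIP3 and TNIP1 keep their rises under both, CYLD, OTULIN and ITCH keep smaller ones at 6 and 24 h, and the falls of SHARPIN at 12 and 24 h shrink from -0.36 to -0.11 and from -0.35 to -0.02.

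RNF31 (ENSG00000092098, chr14:24146683-24160661, plus strand), the catalytic LUBAC subunit, had 27.9, 26.3 and 24.4 CPM at 0 h. Its values were 31.9, 29.7 and 28.2 CPM at 3 h, 28.4 to 29.1 CPM at 6 h, 23.0 to 26.4 CPM at 12 h and 27.5 to 29.5 CPM at 24 h. All libraries at 3 and 6 h lay just above the highest at 0 h, and those at 12 and 24 h overlapped 0 h. RNF31 was not called at any time against 0 h, with log2 fold changes of 0.19 ± 0.080 at 3 h (adjusted p = 0.0996, edgeR) and 0.13 ± 0.079 at 24 h (0.193). Its adjusted p over all times together was 0.0419, a call lost when any 1 of 11 libraries was left out (up to 0.113, with replicate 2 of 12 h omitted): replicates 2 and 3 of 0 h, 1 and 2 of 3 h, all of 6 h, 1 and 2 of 12 h, and 2 and 3 of 24 h. Among the 12 alternatives run for it that kept every library or averaged pairs, 5 also lost this call. With length and GC trends removed, RNF31 was called higher at 3 h (0.19, adjusted p = 0.0299, edgeR) and 24 h (0.21, 0.0112). Expected counts of RNF31 were not whole in any of the 17 libraries. RNF31 shares 1732 exon bases, 34.8% of its exons, with the same-strand gene AL136295.5, which had 9.27 to 105 counts, beside 371 to 526 for RNF31. PSME2, on the opposite strand with 2314 to 3378 counts, overlaps 216 exon bases of RNF31, 4.34% of its exons. The strand setting of the counting is not given.

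RBCK1 (ENSG00000125826, chr20:407498-430966, plus strand) encodes HOIL-1, a LUBAC subunit that is itself a ligase and tunes the activity of the complex. Its level was 92.4, 91.4 and 80.2 CPM at 0 h and 101, 118 and 88.0 CPM at 3 h. It was 79.9 to 83.7 CPM at 6 h, 78.0 to 87.6 CPM at 12 h and 69.0, 66.8 and 67.5 CPM at 24 h. The 3 h values were the most spread, overlapping 0 h, and the 24 h libraries were below all others of the series. RBCK1 was lower at 24 h by 0.38 on the log2 scale (-0.38 ± 0.083, SE, adjusted p = 0.00198, edgeR), a call made under all 30 alternatives. With length and GC trends removed this value was -0.18 (adjusted p = 0.00917, edgeR). RBCK1 also fell from 3 to 6 h (-0.32, adjusted p = 0.00425, edgeR; -0.16, 0.0127 with the trends removed). The step from 12 to 24 h was -0.27 (0.0386), a call lost without any 1 of 5 libraries: the 3 h replicate 1, the 12 h replicates 1 or 3 and the 24 h replicates 2 or 3. The rise at 3 h, 0.22 ± 0.082, was not called (adjusted p = 0.0721, edgeR). It was 0.10 on omitting replicate 2 of 3 h, and called higher on omitting replicate 3 of 3 h (0.32, adjusted p = 0.00799, edgeR) and with length and GC trends removed (0.18, 0.0109).

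SHARPIN (ENSG00000179526, chr8:144098633-144108124, minus strand), the accessory LUBAC subunit, had 65.7, 64.8 and 63.8 CPM at 0 h and 69.0, 75.5 and 56.4 CPM at 3 h. It had 55.3, 52.6 and 54.7 CPM at 6 h, 51.7, 44.0 and 55.7 CPM at 12 h, and 54.8, 50.3 and 47.6 CPM at 24 h. All 9 libraries from 6 h on were below the 3 at 0 h. SHARPIN was lower by -0.36 ± 0.097 at 12 h (SE, adjusted p = 0.0198, edgeR) and -0.35 ± 0.097 at 24 h (0.0101), and -0.26 ± 0.097 at 6 h was just short of a call (0.0517). The longest transcript of SHARPIN is the shortest and the richest in GC of the 10, with 1765 bases and 66.9% GC. With the length and GC trends removed, SHARPIN stood at -0.02 on the log2 scale at 6 h, -0.11 at 12 h (adjusted p = 0.133, edgeR) and -0.02 at 24 h (0.769), and it was not called over all times together (0.372). As counted, the fall at 12 h lost its call on omitting replicate 2 of 12 h (-0.27, adjusted p = 0.127, edgeR) or replicates 1 or 2 of 0 h (0.0661 and 0.0604), and that at 24 h on omitting replicate 3 of 24 h (-0.30, 0.0521).

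The balance of the LUBAC transcripts was described per kilobase of exon, as each gene's share of the 3 genes' summed CPM per kilobase. RNF31 took the smallest share in all 17 libraries. Its share was 10.7%, 10.3% and 10.2% in the 0 h libraries. The 6 h libraries gave 12.4%, 12.9% and 12.6%, and the 24 h libraries 13.0%, 14.6% and 14.8%. All libraries at 6 and 24 h lay above all at 0 h. At 24 h the mean share of RNF31 was 14.1 ± 0.947% against 10.4 ± 0.263% at 0 h (SD, n = 3), and the 2-sided exact permutation test gave p = 0.1, the smallest that 3 against 3 allows. RBCK1 held 43.4 ± 1.39% at 0 h and 41.2 ± 0.886% at 24 h (exact permutation p = 0.2), and SHARPIN 46.2 ± 1.53% and 44.7 ± 1.72% (exact permutation p = 0.4). Scaled by the longest transcript instead of all exons, the RNF31 share was 9.54% at 0 h and 13.0% at 24 h. RBCK1 and SHARPIN have shorter and more GC-rich transcripts than RNF31. From the 0 h means and the fitted changes to 24 h, the RNF31 share went from 10.4% to 14.1% as counted and to 12.6% with the length and GC trends removed, a calculation added after seeing the data.

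**Figure D3:**
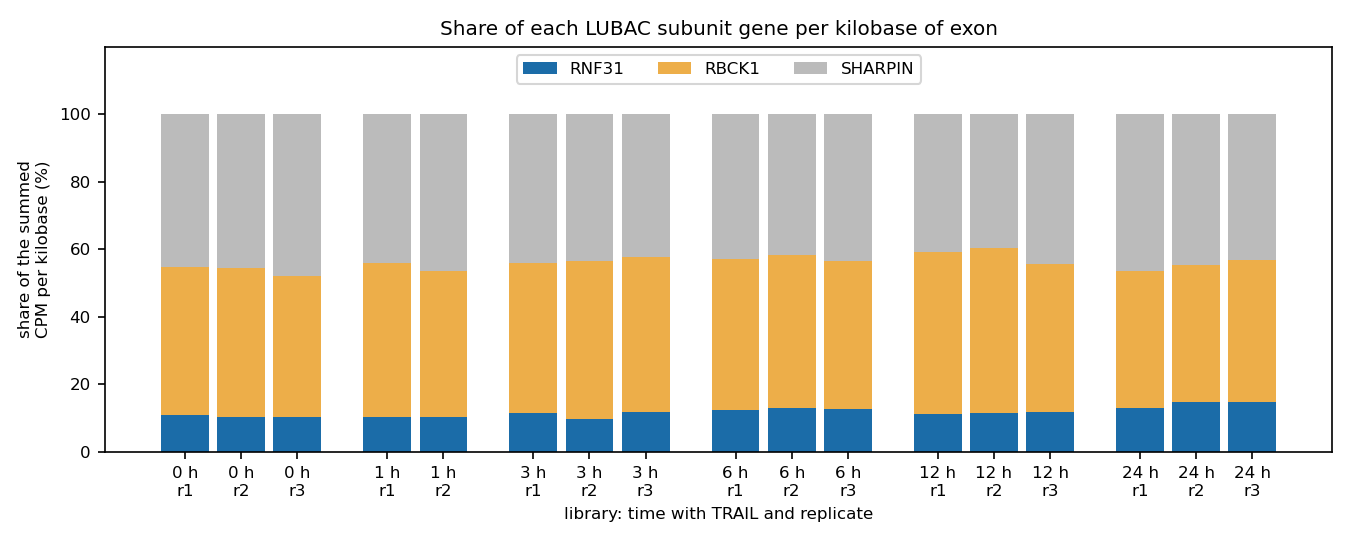
Share of RNF31, RBCK1 and SHARPIN in their summed CPM per kilobase of exon (%), 1 bar per library, grouped by time with TRAIL. The RNF31 share is 10.2% to 10.7% at 0 h and 13.0% to 14.8% at 24 h.

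Between neighbouring times, the members moved most often from 3 to 6 h. From 1 to 3 h, 2 were higher (3.17% of all genes tested) and 0 lower (2.56%), TNFAIP3 and TNIP1. From 3 to 6 h, 5 were higher (22.9% of all) and 3 lower (20.3%). Those higher were TNIP1, CYLD, OTULIN, TAX1BP1 and ITCH, and those lower TNFAIP3, RBCK1 and SHARPIN. From 6 to 12 h, 0 were higher (8.7% of all) and 3 lower (11.9%), TNFAIP3, TNIP1 and CYLD. From 12 to 24 h, TNIP1 was higher and RBCK1 lower, 1 each way (6.42% and 5.6% of all). At unadjusted p below 0.05, 5, 8, 6 and 5 members passed in the 4 steps (edgeR). The call of TNIP1 from 1 to 3 h, 0.26 (adjusted p = 0.0101, edgeR), was lost without either 1 h library (0.0502 and 0.105). That of SHARPIN from 3 to 6 h, -0.30 (0.0173), was lost without the 3 h replicates 1 or 2 or the 6 h replicate 2 (0.0599, 0.12 and 0.0602) and was 0.02 with length and GC trends removed. That removal also made higher CYLD (0.37, adjusted p = 0.000376, edgeR) and OTULIN (0.24, 0.0333) from 1 to 3 h, TNIP2 from 3 to 6 h (0.19, 0.00519), TAX1BP1 from 6 to 12 h (0.18, 0.0110) and RNF31 from 12 to 24 h (0.19, 0.0449). Replicates 2 and 3 at 6 and 24 h were the 2 closest replicate pairs. Their chi-square per gene was 1.55 and 1.68, against at least 3.86 for the others, and sampling noise alone gives 1. The labels do not say whether these pairs were separate cultures. Averaging each pair also ended the calls of ITCH at 6 h (adjusted p = 0.0643, edgeR) and of SHARPIN (0.0505) and TAX1BP1 (0.0514) at 24 h. Between neighbouring times, averaging ended the calls of SHARPIN from 3 to 6 h (0.0557) and RBCK1 from 12 to 24 h (0.152). Those of TNFAIP3 (0.0775) and CYLD (0.153) from 6 to 12 h were lost as well.

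Per kilobase of exon, TNFAIP3 was the least abundant of the 10 genes at 0 h, with 1.73 ± 0.240 CPM per kilobase (SD, n = 3). CYLD followed with 2.31 ± 0.140, OTULIN with 4.18 ± 0.292, RNF31 with 5.26 ± 0.350 and ITCH with 11.2 CPM per kilobase. TNIP2, TAX1BP1, RBCK1, SHARPIN and TNIP1 lay between 19.2 and 23.9 CPM per kilobase, and neighbours among the last 4 differed by less than the larger of their SDs. By the longest transcript, the same 4 genes stayed lowest at 0 h (TNFAIP3 1.84, CYLD 3.51, OTULIN 4.61 and RNF31 7.22 CPM per kilobase) and TAX1BP1 and TNIP1 were highest. At 3 h TNFAIP3 reached 5.12 ± 0.178 CPM per kilobase of exon, above CYLD with 2.92 ± 0.327 and OTULIN with 4.76 ± 0.154. By the longest transcript TNFAIP3 had 5.46 ± 0.190 and OTULIN 5.26 ± 0.170 at 3 h, a difference near 1 SD.

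The time courses were compared as the mean log2 CPM of each time minus the gene's own mean, with the root mean square difference over the 6 times as the distance. The genes nearest to TNFAIP3 among 11319 candidates were NFKBIA (0.16), IL6 (0.16), NFKBIE (0.17), CD274 (0.18) and JUNB (0.20). All 5 were highest at 3 h, like TNFAIP3, which comes with their choice by nearness to it and is no separate result. The choice depended on the minimum level: with none, 1 of these 5 genes was still among the 5 nearest to TNFAIP3. The other 9 members lay at distances of 0.41 for RNF31 to 0.55 for TAX1BP1. Among 15364 genes, with no minimum level, RNF31 ranked 1348 in nearness and TAX1BP1 10817. TNIP2, which was not called over all times together, lay at 0.45 and ranked 3458. Among themselves, TNIP1 and CYLD were the closest pair of members (0.07), then CYLD and OTULIN (0.08), OTULIN and ITCH (0.09) and RBCK1 and SHARPIN (0.10). CYLD, OTULIN and ITCH have long transcripts of low GC content, RBCK1 and SHARPIN shorter ones of high GC content, and TNIP1 and CYLD differ in both. The part of length and GC content in these distances was not tested, and the distances are descriptions.

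**Figure D4:**
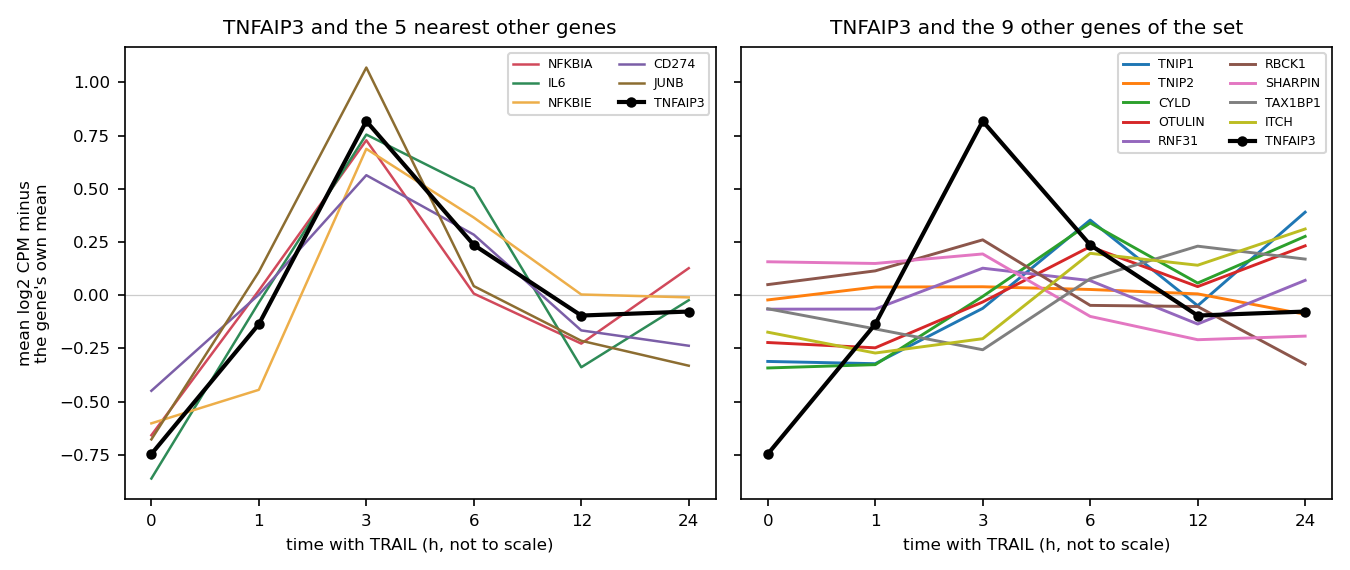
Mean log2 CPM at each of the 6 times minus the gene's own mean, for TNFAIP3 (black) with the 5 genes of nearest time course (left) and with the other 9 members (right). The left-hand genes, chosen for nearness to TNFAIP3, are highest at 3 h as it is. The right-hand members lie 0.41 to 0.55 from TNFAIP3 by root mean square difference.

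A wider list held 28 other genes of the ubiquitin steps at TNF-family receptors, of which 27 were tested, since TNIP3, a further A20 partner, had too few counts. At 1, 3, 6, 12 and 24 h, 0, 6, 15, 4 and 11 of the 27 were called higher (0.26%, 9.04%, 16.9%, 5.96% and 18% of all genes tested). At 24 h, 2 of the 27 were called lower, beside 17.1% of all genes. The list's median log2 fold changes at these times were -0.05, 0.05, 0.25, 0.10 and 0.21, beside medians of -0.02 to -0.0017 over all genes tested. The 6 h count was 9 when replicates 2 and 3 at 6 and 24 h were averaged, and the 24 h count of wider genes called higher was 7 without the 24 h replicate 2. The median at 3 h changed sign without the 3 h replicate 3 (-0.04). With length and GC trends removed, the list's median was 0.07 at 12 h and 0.14 at 24 h. Single genes of this list, and the other families named below, are given as counted only.

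BIRC3, which encodes cIAP2, a ligase that ubiquitinates RIPK1, was higher on the log2 scale by 2.22, 2.14, 1.32 and 2.04 at 3, 6, 12 and 24 h (each ± 0.095, SE, highest adjusted p = 7.57e-08, edgeR). BIRC2, which encodes the related ligase cIAP1, was higher by 0.47, 1.04, 0.44 and 0.62 at the same times. TRAF3, an adaptor that works with the cIAP ligases, was higher by 0.71 at 6 h (adjusted p = 9.65e-07, edgeR). TRAF3 was also higher by 0.34 at 3 h (0.00318) and 0.46 at 24 h (0.000108), and not called at 12 h (0.09, 0.470). BIRC3 and BIRC2, like TNFAIP3 and TNIP1, were called at each of the 4 times from 3 h on.

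SPATA2, the adaptor that brings CYLD to LUBAC, was called at 3 h alone of the 5 times (0.41 ± 0.086, adjusted p = 0.00328, edgeR) and was lower at 6 h than at 3 h (-0.23, 0.0373). OPTN, a ubiquitin-binding receptor related to the ABIN proteins, was higher by 0.29 at 6 h, 0.32 at 12 h and 0.54 at 24 h (adjusted p = 0.00333, 0.00412 and 1.44e-05, edgeR). RNF11, a ligase that acts with A20, TAX1BP1 and ITCH, was higher at 6 h (0.31, adjusted p = 0.0371, edgeR). UBE2L3, the conjugating enzyme used by LUBAC, was not called against 0 h at any time. It was lower at 6 h than at 3 h (-0.17, adjusted p = 0.0140, edgeR). The conjugating enzymes UBE2N and UBE2D2 were lower at 24 h (-0.25 and -0.21, adjusted p = 0.00209 and 0.00304, edgeR). Before that, UBE2N was higher at 3 h (0.21, adjusted p = 0.0161, edgeR) and fell from 3 to 6 h (-0.19, 0.00864).

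Other families of the pathway were counted for comparison. Of all genes tested, 9.04%, 16.9%, 5.96% and 18% were called higher at 3, 6, 12 and 24 h. All 5 genes of the IκB family tested, the inhibitors NFKBIA, NFKBIB and NFKBIE and the nuclear co-regulators NFKBIZ and BCL3, were higher at 3 h, with a median log2 fold change of 0.96, and at 6 h, with a median of 0.49. At 12 and at 24 h, 3 of these 5 were higher. Of the 7 TRAF genes, 4, 5, 1 and 2 were higher at the 4 times. Of the 6 kinase genes of the IKK group, 1, 3, 2 and 4 were higher. In these families 0 genes were called lower against 0 h. Of all genes tested, 8.71%, 13.2%, 6.48% and 17.1% were called lower at 3, 6, 12 and 24 h.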

How the data were processed

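RNA-seq libraries of 17 MDA-MB-231 samples at 6 times were analysed. Per the labels' protocols, the kit was stranded, mRNA-selecting and paired-end. The submitters' processing notes name cutadapt 1.18, STAR 2.7.0f and build hg38, with no roles. The authors deposited 1 table of RSEM expected counts per gene, not scaled to depth or length, and 10.8% of the values were not whole. The strand setting of the counting is not given in the sources used here. Counts were rounded, genes filtered with filterByExpr and libraries scaled by TMM. A quasi-likelihood model (edgeR 4.0.16, R 4.3.3, robust) with 1 mean per time was fitted to all 17 libraries, which share 1 estimate of the spread, and p-values were adjusted by Benjamini-Hochberg over 15365 genes. Standard errors are the unshrunken coefficient over the root of F. The code was tested on simulated data. Alternatives were RLE, upper-quartile and library-size scaling, no filter, limma-voom (limma 3.58.1), a minimum mean count of 10, DESeq2 1.42.0, non-robust estimation, only the 2 groups compared, the replicate block, unrounded counts, replicates 2 and 3 at 6 and 24 h averaged, each library left out in turn, and each library's trends on log2 transcript length and GC content (splines of 4 degrees of freedom) removed through offsets. Lengths, GC content and positions came from GENCODE 29, matched by Ensembl gene without the version for 58597 of 58870 entries. The rule named every member, fixed genes of the wider list with up to 3 called genes per direction, and the 5 genes of nearest time course whose average log2 CPM was 2 or more. Members and lists were chosen with earlier results of these data known. One marker of the fixed lists is not reported here. Counts limit precision, and PCR duplicates are not independent molecules.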

Additional observations from a re-analysis of the deposited data

How the results depend on the processing

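Of 1970 single-gene values recomputed under 30 settings, 1837 kept their direction and side of the threshold, 83 lost a call, 34 gained one and 16 changed sign; the cause was not tested. Of the 48 calls, 29 were made under every setting that could be run. Leaving aside the omission of single libraries, the alternatives moved the median over all genes against 0 h by at most 0.0737 on the log2 scale. Apart from the trend removal, member counts under alternatives stand without the number of all genes called under the same setting. Such counts are descriptions only.

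The count of members lower at 3 h was 1 (TAX1BP1) under upper-quartile scaling, library-size scaling, no filter, a mean count of at least 10, DESeq2 and the trend removal. The count lower at 6 h was 1 (SHARPIN) under the first 5 of these and with only the 2 groups compared. Upper-quartile scaling gave 1 higher and 1 lower member from 6 to 12 h and -0.021 for TNIP2 at 6 h. Library-size scaling gave 2 higher and 0 lower from 12 to 24 h, -0.0074 for TNIP2 and -0.024 for SHARPIN at 3 h, and 0.0073 for TNIP2 at 24 h. With no filter, 1 member was higher from 1 to 3 h. With only the 2 groups compared, 0 were higher at 1 h, 1 from 1 to 3 h and 1 from 6 to 12 h. Averaging replicates 2 and 3 gave 1 lower at 24 h, 1 lower from 6 to 12 h and 0 lower from 12 to 24 h.

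Removing length and GC trends gave 6 members higher at 3 h, 6 at 6 h and 8 at 24 h. Over all genes tested, the number called higher rose from 1389 to 1938 at 3 h. It fell from 2602 to 2481 at 6 h and from 2763 to 2722 at 24 h. The gain in members at 3 h thus came with a gain over all genes. Between neighbouring times, 4 members were higher from 1 to 3 h, 1 from 6 to 12 h and 2 from 12 to 24 h. The number of all genes called higher also rose in each of these steps. The trend removal left 0 members lower at 12 h and 1 at 24 h. It also changed the sign of SHARPIN (-0.045) and ITCH (0.048) at 3 h, RBCK1 at 6 h (0.018) and 12 h (0.074), RNF31 at 12 h (0.030), TNIP2 at 24 h (0.15) and SHARPIN from 3 to 6 h (0.021).

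With the replicate block, 5 members were higher at 3 h and 2 from 12 to 24 h, given without the counts over all genes. Whether equal numbers pair the samples is not settled. Of 40 same-numbered pairs, 8 deviated together with a correlation over 0.1 (median 0.01). Of 80 differently numbered pairs, 14 did (median -0.0086). The best match had the same number for 10 of 17 libraries.

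With each library left out in turn, the count higher ran from 0 to 1 at 1 h, 2 to 6 at 12 h, 1 to 3 from 1 to 3 h and 1 to 2 from 12 to 24 h. The count lower ran from 0 to 1 at 3, 6 and 12 h, 1 to 2 at 24 h, 1 to 4 from 6 to 12 h and 0 to 1 from 12 to 24 h. SHARPIN at 3 h ran from -0.047 to 0.16, ITCH at 3 h from -0.073 to 0.046 and TNIP2 at 12 h from -0.021 to 0.074. Where 1 h kept a single library, it is assumed to vary like the others. The fewest counts, 120 for TNFAIP3 in 1 library, limit precision most.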
